A study of Mus musculus with 12 samples.

Results

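Cholesterol and fatty acid synthesis genes were followed in R1 mouse embryonic stem cells after knockdown of Krr1, which is needed to assemble small ribosomal subunits. The group holds 32 genes chosen by name, which are all among the 23420 gene symbols of both deposited count tables. It comprises 18 enzymes of sterol synthesis, 9 enzymes of fatty acid synthesis and desaturation, and 5 regulators or carriers of sterols. The enzyme named Sc4mol in the tables is the gene now called Msmo1. Levels were followed in RNA-seq and in ribosome profiling, which counts the RNA fragments protected by ribosomes (footprints).

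The cells were kept without feeders, on gelatin, in medium with 15% serum and 1000 U/ml of the self-renewal cytokine LIF. The control lysates were named siGFP, siNC and Lipo, and the knockdown lysates, called siKrr1 here, carry the letters A, C and D in the count tables. Each of the 6 lysates was split between the assays 48 h after transfection, which gave 12 libraries, 3 per condition and assay. The labels count 3 siRNAs per condition, although the name Lipo states none. R1 is a single cell line, and the labels do not say whether the lysates came from separate cultures, so every p-value measures only the spread between these lysates.

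Cholesterol is built from acetyl-CoA through mevalonate, squalene and lanosterol, and fatty acids are built from the same acetyl-CoA by carboxylation, chain synthesis, elongation and desaturation. Both routes are driven by the SREBP transcription factors, which are held in the endoplasmic reticulum by Insig proteins when sterols are plentiful and are escorted to the Golgi by Scap when sterols are scarce. Cultured cells also take up lipid from serum. SREBPs bind sterol regulatory elements, commonly next to sites of the factor NF-Y, whose core is CCAAT.

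The promoters are shown first, since both motifs bear on the shared control of these genes. Of the 32 genes, 25 matched the RefSeq promoter table (GRCm38.p6), and the 250 bases before each start in that table were searched on both strands. These starts are not always the outermost of the gene: that of Acaca, its only one in the table, lies 65803 bases inside the gene, and that of Fasn 619 bases inside. The motifs were CCAAT and TCACNCCAC, a strict form of the sterol regulatory element. CCAAT was read as ATTGG on the other strand and TCACNCCAC as GTGGNGTGA, and in Fasn a CCAAT and an ATTGG share bases. Fdps, Fdft1, Sqle, Stard4, Scd1, Scd2 and Fads1 had no match in that table and were not searched. CCAAT was present in 14 of the 15 matched sterol enzymes and in 2 of the 6 matched fatty acid enzymes. Dhcr7 is counted here through a start 7047 bases inside the gene, and its other promoters held none. Counted per promoter, since some genes have several, it was in 77.8% of 18 sterol enzyme promoters and in 33.3% of 6 fatty acid enzyme promoters, while 33.8% of 32851 promoters in the table held it. Without Acaca, 2 of 5 fatty acid enzyme promoters held it. TCACNCCAC was found in Hmgcs1 alone among the 25 genes, and in 1.05% of all promoters. A match is a description of letters and not a binding site.

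5 promoters are printed to show this contrast, with both motifs in capitals: an early and a late sterol enzyme whose promoters hold 3 CCAAT matches each (Hmgcs1, Sc4mol), the gene with the most matches of the 25 (Mvk, with 5), a fatty acid enzyme that does hold CCAAT (Fasn), and Fads2, a desaturase with neither motif that was called in RNA. They lie at chr13:119690101-119690350 on the plus strand (Hmgcs1), chr8:64733579-64733828 on the minus strand (Sc4mol), chr5:114444019-114444268 on the plus strand (Mvk), chr11:120824548-120824797 on the minus strand (Fasn) and chr19:10101504-10101753 on the minus strand (Fads2), and each is written in the direction of transcription.
Hmgcs1: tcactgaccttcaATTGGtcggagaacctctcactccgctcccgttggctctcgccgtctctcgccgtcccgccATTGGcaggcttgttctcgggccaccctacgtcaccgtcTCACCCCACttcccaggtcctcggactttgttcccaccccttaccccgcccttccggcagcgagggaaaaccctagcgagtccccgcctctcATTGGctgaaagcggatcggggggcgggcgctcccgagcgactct
Sc4mol: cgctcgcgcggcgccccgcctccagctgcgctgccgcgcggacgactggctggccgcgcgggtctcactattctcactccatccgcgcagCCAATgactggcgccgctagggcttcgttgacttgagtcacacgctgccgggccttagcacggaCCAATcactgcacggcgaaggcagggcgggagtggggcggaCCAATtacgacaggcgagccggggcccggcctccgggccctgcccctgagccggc
Mvk: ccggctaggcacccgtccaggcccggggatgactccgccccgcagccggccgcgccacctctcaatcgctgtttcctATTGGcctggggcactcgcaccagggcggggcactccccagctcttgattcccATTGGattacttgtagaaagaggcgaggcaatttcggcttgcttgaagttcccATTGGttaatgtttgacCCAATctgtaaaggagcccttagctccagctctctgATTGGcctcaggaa
Fasn: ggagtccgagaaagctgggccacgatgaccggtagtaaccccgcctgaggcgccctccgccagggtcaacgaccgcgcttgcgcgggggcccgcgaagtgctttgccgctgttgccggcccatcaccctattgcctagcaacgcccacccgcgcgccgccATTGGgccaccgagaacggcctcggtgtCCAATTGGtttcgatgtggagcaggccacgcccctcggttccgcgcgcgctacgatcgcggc
Fads2: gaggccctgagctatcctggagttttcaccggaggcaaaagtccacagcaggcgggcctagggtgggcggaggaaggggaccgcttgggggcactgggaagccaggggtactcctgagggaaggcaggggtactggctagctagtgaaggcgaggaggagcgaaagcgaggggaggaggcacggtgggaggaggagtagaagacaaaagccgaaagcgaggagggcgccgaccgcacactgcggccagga
In Hmgcs1 the sterol regulatory element match TCACCCCAC began 137 bases before the start, between CCAAT cores that began 176 and 45 bases before it. The 3 matches of Sc4mol all read CCAAT in this direction, at 160, 96 and 55 bases, while 4 of the 5 of Mvk read ATTGG.

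Libraries held 31318772 to 39670139 counts on genes in RNA and 21615934 to 28911254 in footprints. Values are CPM, counts scaled to these totals with TMM factors, so they are relative to the other RNAs of a library and not per cell, and in these bulk lysates fewer cells of a kind and less RNA per cell cannot be told apart. CPM is not divided by gene length, so levels are compared between libraries and not between genes. Krr1 RNA was 151 to 160 CPM in controls and 33.7, 58.0 and 64.6 CPM in the siKrr1 lysates A, C and D. The 8 stem cell markers examined summed to 7895 to 8025 CPM in control RNA and 6304 to 7547 CPM in siKrr1 RNA. Of them 4 fell at an adjusted p under 0.05 (Nanog, Zfp42, Esrrb and Klf4), as did 2.11% of all genes tested. Pou5f1, Sox2, Dppa5a and Tdgf1 did not pass, with log2 fold changes of -0.13, 0.03, 0.03 and -0.15. In footprints the 8 markers summed to 5292 to 5347 CPM and 4126 to 4765 CPM. There 3 fell (Nanog, Esrrb and Klf4), as did 2.68% of all genes tested, and Sox2 was at 0.10. The 8 fibroblast feeder markers summed to 2.99 to 4.28 CPM in control RNA and 2.03 to 3.96 CPM in siKrr1 RNA, with Col3a1, Postn and Lum at 0 in every RNA library. Their footprint sums were higher, at 11.2 to 13.7 CPM in controls and 7.47 to 14.3 CPM in siKrr1. The part of the stem cell marker change in the results below was not tested.

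Few of these genes passed the test after Krr1 knockdown, about the share over all genes tested. Those that did were lower, but they were too few to read a direction for the group. In RNA 1 of the 32 genes fell and 0 rose, where 4.8% of the 14038 genes tested were called, 2.11% lower and 2.69% higher (edgeR quasi-likelihood fit, with calls at a Benjamini-Hochberg adjusted p under 0.05). At an unadjusted p under 0.05, 6 were lower and 2 higher in RNA, against 9.83% and 11.1% of all genes (20.9% in either direction). In footprints 2 of the 32 fell and 0 rose, where 6.07% of 13287 genes were called, 2.68% lower and 3.39% higher. At an unadjusted p under 0.05, 11 were lower and 2 higher, against 10.5% and 12% of all genes (22.5% in either direction). The called genes were the desaturase Fads2 in RNA, and the desaturase Scd1 and the sterol enzyme Sc4mol in footprints. All 32 genes passed the filter on low counts in both assays.

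The log2 fold changes were small. Over the 32 genes they ran from -0.52 to 0.24 in RNA, with a median of -0.13, and from -0.80 to 0.20 in footprints, with a median of -0.15. The median over all genes tested was -0.0012 in RNA and 0.0067 in footprints. In RNA 26 of the 32 were below 0, as were 50.2% of all genes tested, and in footprints 22 were, against 48.5%. All 3 siKrr1 libraries lay below all 3 controls for 10 of the 32 genes in footprints, where this held for 13.6% of all genes tested, and above them for 2 (14.3% of all genes). In RNA the counts were 3 below (13.4% of all genes) and 1 above (13.6%).

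**Figure D1:**
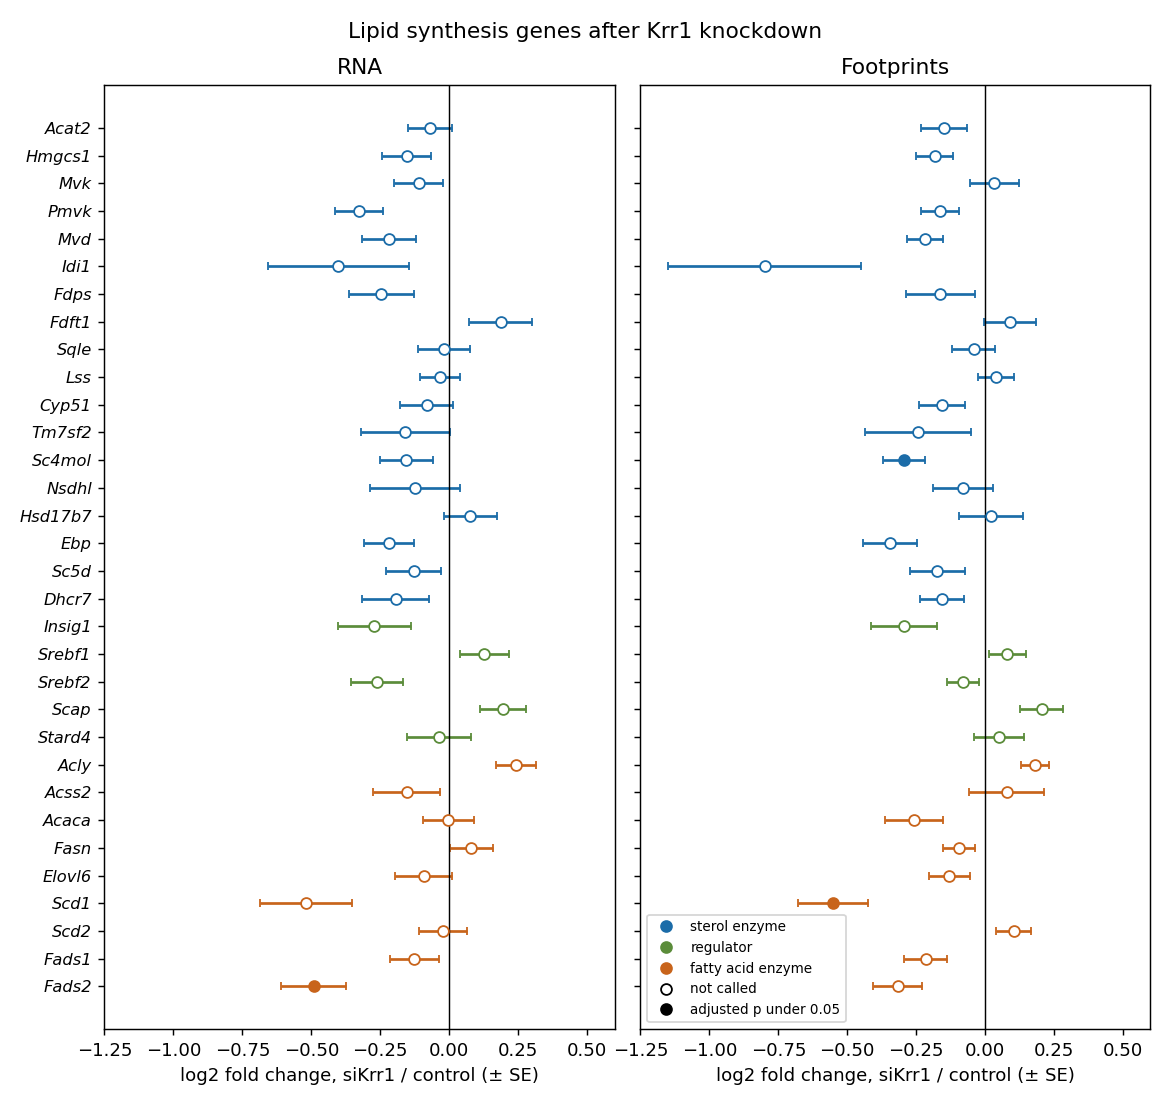
Log2 fold change of siKrr1 over control (x axis, ± SE from the edgeR fit, 3 libraries per condition) for the 32 genes in RNA and in footprints, coloured by group, with filled points for an adjusted p under 0.05. Fads2 is filled in RNA, Scd1 and Sc4mol in footprints, and Acly and Scap lie to the right of 0 in both panels.

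Among the 7 enzymes that lead to farnesyl diphosphate, none was called, and all 7 were below 0 in RNA and 6 in footprints. Hmgcs1, the synthase that makes HMG-CoA, had footprints at 347, 395 and 355 CPM in siGFP, siNC and Lipo, against 316, 346 and 304 CPM in the siKrr1 lysates A, C and D. The groups did not overlap, but siKrr1 C came within a CPM of siGFP, and the log2 fold change was -0.18 ± 0.07 (SE; edgeR adjusted p = 0.136). Its RNA overlapped, at 170, 211 and 182 CPM against 158, 179 and 167 CPM (-0.15 ± 0.09; edgeR adjusted p = 0.359). Acat2, the cytosolic thiolase that joins acetyl-CoA units, had RNA at 113, 132 and 121 CPM in controls against 117, 122 and 109 CPM, and footprints at 47.9, 52.5 and 42.9 CPM against 44.2, 42.2 and 43.0 CPM. The groups overlapped in both assays, at -0.07 ± 0.08 in RNA and -0.15 ± 0.08 in footprints.

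Pmvk, the phosphomevalonate kinase, was singled out after its values were seen, since its RNA came nearest to a call in this group. Its RNA was 90.4, 106 and 95.7 CPM in siGFP, siNC and Lipo, against 84.0, 77.6 and 71.3 CPM in the siKrr1 lysates A, C and D. The groups were apart in RNA (-0.33 ± 0.09; edgeR adjusted p = 0.0569) and in footprints (-0.16 ± 0.07; edgeR adjusted p = 0.188). Idi1, the isopentenyl diphosphate isomerase, had the largest estimates of the group, at -0.40 ± 0.25 in RNA and -0.80 ± 0.35 in footprints, and the least data. It held 89, 56 and 60 RNA counts in controls and 46, 50 and 50 in siKrr1, and 52, 83 and 31 footprint counts against 31, 20 and 45. Its control libraries spread widely and the groups overlapped in footprints by counts and in both assays by CPM. Only uniquely aligned reads were counted, so reads shared with near-identical copies of a gene are missing from its level. Mvk, Mvd and Fdps lay between -0.25 and -0.11 in RNA and between -0.22 and 0.03 in footprints. Of these, Mvd came nearest to a call, in footprints, and is also given after its values were seen. Its footprints were 98.4, 98.4 and 90.0 CPM in controls and 79.2, 85.5 and 81.9 CPM in siKrr1, all lower (-0.22 ± 0.06; edgeR adjusted p = 0.0755). Its RNA overlapped (-0.22 ± 0.10; edgeR adjusted p = 0.237).

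Of the 3 enzymes from farnesyl diphosphate to lanosterol none was called, and Fdft1 had the highest RNA estimate of the 18 sterol enzymes. Fdft1, the squalene synthase, was at 50.0, 65.4 and 57.4 CPM in control RNA and 72.2, 68.3 and 56.5 CPM in siKrr1 RNA. Its siKrr1 A and C libraries were above every control and siKrr1 D was below Lipo (0.19 ± 0.11; edgeR adjusted p = 0.392). Its footprints also overlapped, at 58.0, 71.6 and 60.8 CPM against 67.0, 74.0 and 62.0 CPM (0.09 ± 0.09). Sqle, the squalene epoxidase, had RNA at 81.7, 98.6 and 89.9 CPM against 94.0, 93.6 and 79.3 CPM (-0.02 ± 0.09), and footprints at 83.4, 101 and 91.9 CPM against 93.1, 91.1 and 85.0 CPM (-0.04 ± 0.08). Lss, the lanosterol synthase, had RNA at 101, 110 and 96.6 CPM against 100.4, 102 and 99.0 CPM (-0.03 ± 0.07), and footprints at 67.8, 74.2 and 67.6 CPM against 71.7, 70.4 and 73.3 CPM (0.04 ± 0.07). Both overlapped in both assays. Fdft1 overlaps the gene Ctsb in RefSeq. Whether reads on both were left out as ambiguous is not known, since the annotation and strand setting of the counts are not given.

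Of the 8 enzymes that turn lanosterol into cholesterol, Sc4mol fell in footprints. Sc4mol, a methyl oxidase that helps strip methyl groups from the sterol ring (chromosome 8, 64718123 to 64733578, mm10), had footprints at 208, 231 and 215 CPM in siGFP, siNC and Lipo, against 160, 196 and 178 CPM in the siKrr1 lysates A, C and D. The siKrr1 libraries were all lower, at 81.5% ± 8.28 of the control mean (SD, n = 3), with a log2 fold change of -0.29 ± 0.08 (edgeR adjusted p = 0.0449). Its RNA overlapped between groups, at 190, 240 and 205 CPM against 173, 194 and 203 CPM (-0.16 ± 0.10; edgeR adjusted p = 0.394). The footprint call was kept in 1 of the 6 fits that each left out a library, and the edgeR adjusted p reached 0.186 without siNC.

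Ebp, the sterol isomerase, was the next nearest to a call. Its footprints were 52.7, 53.1 and 49.6 CPM in controls and 34.2, 45.1 and 42.9 CPM in the siKrr1 lysates A, C and D. All siKrr1 libraries were lower (-0.34 ± 0.10; edgeR adjusted p = 0.0645), and its RNA overlapped by siKrr1 C alone (-0.22 ± 0.09; edgeR adjusted p = 0.2). That RNA was 46.1, 48.7 and 53.3 CPM against 39.7, 46.3 and 41.4 CPM. Cyp51, the lanosterol demethylase, had RNA at 99.9, 128 and 113 CPM against 99.0, 113 and 110.0 CPM (-0.08 ± 0.10), and footprints at 99.9, 114 and 107 CPM against 84.7, 105 and 98.4 CPM (-0.16 ± 0.08), and overlapped in both. The remaining Tm7sf2, Nsdhl, Hsd17b7, Sc5d and Dhcr7 ran from -0.19 to 0.08 in RNA and from -0.24 to 0.02 in footprints, and each overlapped between groups in both assays.

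The regulators moved in no single direction, and 0 of 5 were called in either assay. Insig1, which holds the SREBPs in the endoplasmic reticulum, had RNA at 89.5, 102 and 88.4 CPM in controls and at 58.8, 89.2 and 83.8 CPM in the siKrr1 lysates A, C and D. Only siKrr1 A stood well below the controls, and siKrr1 C was above Lipo (-0.27 ± 0.13; edgeR adjusted p = 0.273). Insig1 footprints did not overlap, at 25.2, 27.7 and 27.3 CPM against 17.5, 23.1 and 24.6 CPM (-0.29 ± 0.12; edgeR adjusted p = 0.17). Srebf2, the SREBP of sterol genes, had RNA at 99.1, 88.4 and 83.9 CPM in controls and 73.5, 84.4 and 68.7 CPM in siKrr1, where siKrr1 C was above Lipo (-0.26 ± 0.09; edgeR adjusted p = 0.142). Its footprints overlapped, at 161, 172 and 176 CPM against 165, 161 and 156 CPM (-0.08 ± 0.06). Scap, their escort to the Golgi, was singled out after its values were seen. Its footprints were 39.6, 39.9 and 36.0 CPM in controls and 47.4, 43.4 and 42.4 CPM in siKrr1, all higher (0.20 ± 0.08; edgeR adjusted p = 0.143), and its RNA was at 0.20 ± 0.08 with overlap by siKrr1 D. Srebf1, the SREBP of fatty acid genes, and the sterol carrier Stard4 lay between -0.04 and 0.13 in both assays.

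Among fatty acid enzymes, acetyl-CoA supply and chain synthesis held no called gene. Acly, the citrate lyase that makes cytosolic acetyl-CoA (chromosome 11, 100476352 to 100528000), had RNA at 523, 580.2 and 551 CPM in controls and at 663, 677 and 617 CPM in the siKrr1 lysates A, C and D. Its footprints were 588, 623 and 603 CPM against 699, 693 and 662 CPM. Every siKrr1 library was above every control in both assays, at 0.24 ± 0.07 in RNA (edgeR adjusted p = 0.081) and 0.18 ± 0.05 in footprints (edgeR adjusted p = 0.063). Acly was therefore placed opposite to most of the group, just short of the threshold. With plain library sizes in place of TMM factors it was called higher in both assays (edgeR adjusted p = 0.0371 in RNA and 0.0295 in footprints).

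Acss2, which makes acetyl-CoA from acetate, had RNA at 10.8, 11.7 and 11.1 CPM against 9.23, 11.2 and 9.79 CPM (-0.15 ± 0.12), and footprints at 8.44, 11.6 and 9.51 CPM against 10.5, 10.6 and 10.1 CPM (0.08 ± 0.14), and overlapped in both. Fasn, the fatty acid synthase, was at 418, 397 and 404 CPM in control RNA and 455, 447 and 386 CPM in siKrr1 RNA, with siKrr1 D below all controls and the others above them (0.08 ± 0.08; edgeR adjusted p = 0.613). Its footprints were 873, 888 and 930.1 CPM against 894, 836 and 791 CPM, with overlap by siKrr1 A (-0.09 ± 0.06; edgeR adjusted p = 0.378). Acaca, the acetyl-CoA carboxylase that makes malonyl-CoA, had RNA at 30.8, 32.8 and 33.8 CPM against 34.5, 33.0 and 29.7 CPM (-0.0031 ± 0.09), and footprints at 43.0, 38.5 and 41.7 CPM against 35.8, 38.5 and 28.9 CPM (-0.26 ± 0.10; edgeR adjusted p = 0.169). Its footprints were lowest in siKrr1 D, and the gene overlaps Tada2a in the annotation. Elovl6, an elongase, had RNA at 154, 125 and 132 CPM against 115, 125 and 145 CPM (-0.09 ± 0.10), with overlap. Its footprints did not overlap, at 76.4, 66.7 and 66.1 CPM against 62.1, 66.0 and 63.0 CPM, but siKrr1 C was close to Lipo (-0.13 ± 0.07; edgeR adjusted p = 0.337).

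The desaturases held the remaining called genes, Fads2 in RNA and Scd1 in footprints, and their paralogs Fads1 and Scd2 were not called. Fads2, which puts the first added double bond into polyunsaturated fatty acids (chromosome 19, 10062765 to 10101503), had RNA at 27.0, 34.4 and 28.1 CPM in siGFP, siNC and Lipo, against 19.0, 22.6 and 22.0 CPM in the siKrr1 lysates A, C and D. It fell from 29.8 ± 3.96 to 21.2 ± 1.91 CPM (SD, n = 3), a log2 fold change of -0.49 ± 0.12 (edgeR adjusted p = 0.0377). Its footprints were also apart, at 50.3, 58.4 and 53.7 CPM against 38.9, 44.7 and 46.7 CPM (-0.32 ± 0.09; edgeR adjusted p = 0.0585). The RNA call was kept in 1 of 6 fits with a library left out, and the edgeR adjusted p reached 0.179 without siNC.

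Fads1, the desaturase that acts later on the same fatty acids, had RNA at 64.1, 72.0 and 66.3 CPM in controls and 54.9, 64.8 and 65.6 CPM in siKrr1, with overlap (-0.13 ± 0.09; edgeR adjusted p = 0.468). Its footprints were apart, at 54.0, 56.8 and 52.1 CPM against 42.1, 48.8 and 49.2 CPM (-0.22 ± 0.08; edgeR adjusted p = 0.134). Fads2 counts were 42.2%, 47.7% and 42.3% of Fads1 counts in the control RNA libraries and 34.7%, 34.9% and 33.5% in the lysates of siKrr1. In footprints the same percentage overlapped, at 93.1, 103 and 103 in controls and 92.4, 91.4 and 94.9 in siKrr1. The change of this percentage was not compared between the assays by a test.

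Scd1, a stearoyl-CoA desaturase that makes monounsaturated fatty acids (chromosome 19, 44394450 to 44407709), had footprints at 49.2, 54.2 and 45.8 CPM in siGFP, siNC and Lipo, against 27.4, 41.2 and 33.2 CPM in the siKrr1 lysates A, C and D. It fell in footprints from 49.7 ± 4.20 to 33.9 ± 6.94 CPM (SD, n = 3), by a log2 fold change of -0.55 ± 0.13 (edgeR adjusted p = 0.0303). Its RNA was 47.3, 55.1 and 50.4 CPM in controls and 24.3, 42.5 and 39.6 CPM in siKrr1, lowest in siKrr1 A (-0.52 ± 0.17; edgeR adjusted p = 0.103). The footprint call was kept in 2 of 6 fits with a library left out, with an edgeR adjusted p of 0.126 without siNC.

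Scd2, its neighbour on the same chromosome (44293676 to 44306864) with the same activity, was not lower. Its RNA was 379, 477 and 412 CPM in controls and 409, 430 and 410 CPM in siKrr1 (-0.02 ± 0.09; edgeR adjusted p = 0.916), and its footprints were 260.5, 304 and 263 CPM against 293, 299.6 and 297 CPM (0.10 ± 0.07; edgeR adjusted p = 0.388). Scd1 counts were 12.5%, 11.5% and 12.3% of Scd2 counts in control RNA and 5.95%, 9.88% and 9.66% in the siKrr1 lysates. In footprints they were 18.9%, 17.8% and 17.4% in controls and 9.34%, 13.7% and 11.2% in siKrr1. The ratio was below every control in every siKrr1 library of both assays. The pair was singled out after its values were seen, so no test is given.

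**Figure D2:**
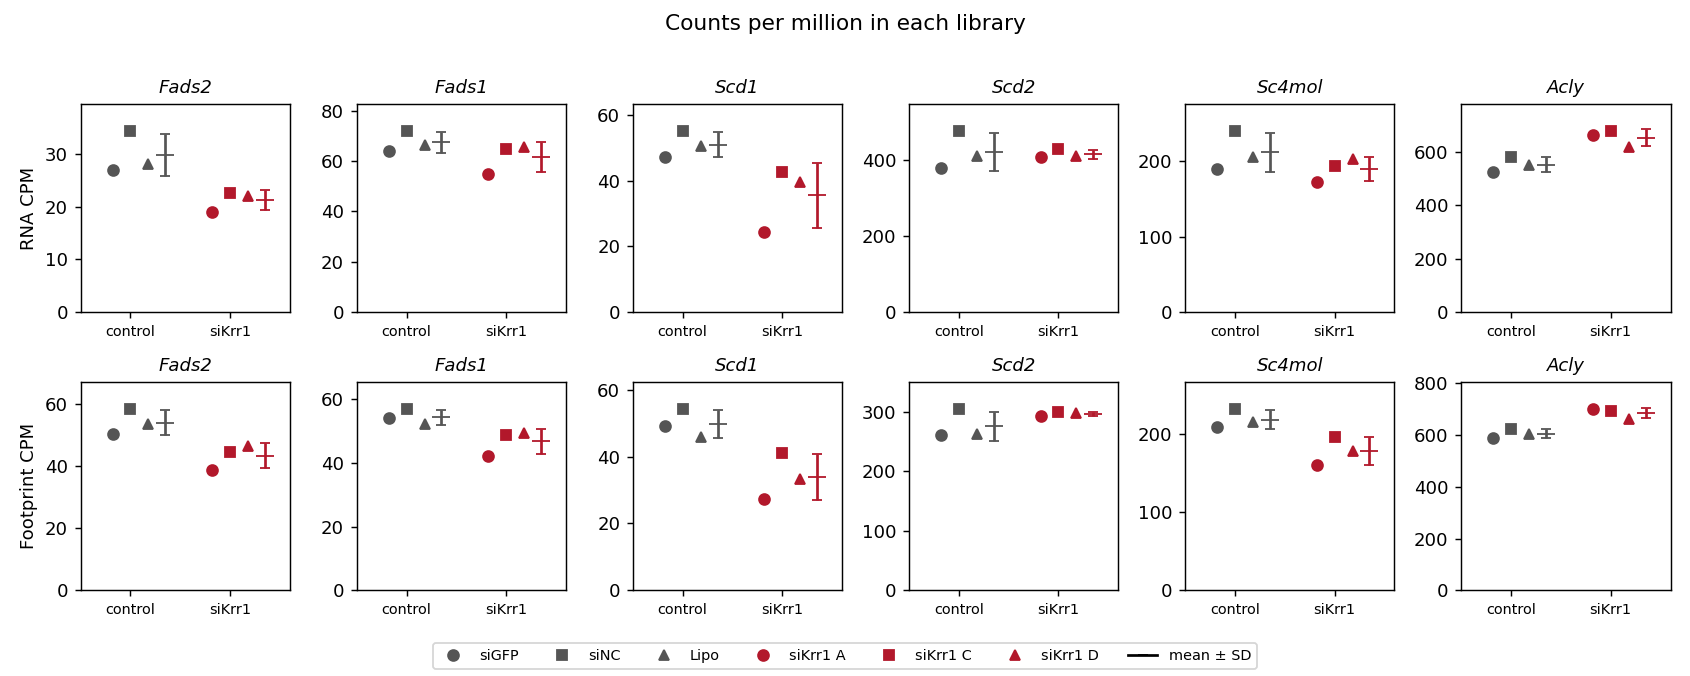
CPM after TMM scaling (y axis, from 0) of 6 genes in each RNA library (top) and footprint library (bottom), with the mean ± SD of 3 libraries beside each group. Scd1 and Fads2 are lower in all siKrr1 libraries while Scd2 overlaps its controls, and Acly is higher in all siKrr1 libraries.

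Sterol and fatty acid enzymes were then compared as groups. In RNA the median log2 fold change was -0.14 over the 18 sterol enzymes and -0.09 over the 9 fatty acid enzymes, and in footprints -0.16 and -0.13. Of the sterol enzymes, 16 were below 0 in RNA and 14 in footprints, with 0 and 1 called. Of the fatty acid enzymes, 7 were below 0 in RNA and 6 in footprints, with 1 called in each. In RNA the sterol enzymes ran from -0.40 (Idi1) to 0.19 (Fdft1) and the fatty acid enzymes from -0.52 (Scd1) to 0.24 (Acly). In footprints they ran from -0.80 (Idi1) to 0.09 (Fdft1) and from -0.55 (Scd1) to 0.18 (Acly). Without the acetyl-CoA suppliers Acly and Acss2, the median of the other 7 was -0.22 in footprints and -0.09 in RNA.

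The controls also differed among themselves. In RNA the sterol median, relative to the control mean of each gene, was -0.10, 0.12 and -0.04 in siGFP, siNC and Lipo, against -0.23, -0.02 and -0.17 in siKrr1 A, C and D, so siKrr1 C lay within the controls. The fatty acid median was -0.08, 0.07 and -0.01 in controls and -0.25, -0.0052 and -0.07 in siKrr1, again with overlap. In footprints the sterol median was -0.06, 0.10 and -0.06 in controls and -0.22, -0.06 and -0.15 in siKrr1, and siKrr1 C was below the lowest control only in the third decimal. The fatty acid median there was -0.04, 0.06 and -0.05 against -0.17, -0.09 and -0.15, with no overlap.

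Subtracting the fatty acid from the sterol median in each library left values of -0.03 to 0.04 in control RNA and 0.03, -0.01 and -0.10 in siKrr1 RNA (A, C, D). In footprints this difference was -0.02 to 0.04 in controls and -0.05, 0.03 and -0.0018 in siKrr1. Beyond siKrr1 D in RNA and siKrr1 A in footprints, it stayed within the control range.

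siNC was the highest control for 22 of the 32 genes in RNA and 25 in footprints, and of the siKrr1 libraries the lowest was A for 15 and 16, D for 16 and 12, and C for 1 and 4. Without siNC the sterol median was -0.07 in RNA and -0.09 in footprints. Without siKrr1 A it was -0.08 in RNA and -0.10 in footprints, and the fatty acid median in RNA was -0.05. Krr1 itself was lowest in siKrr1 A, and its part in these differences between libraries was not tested.

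**Figure D3:**
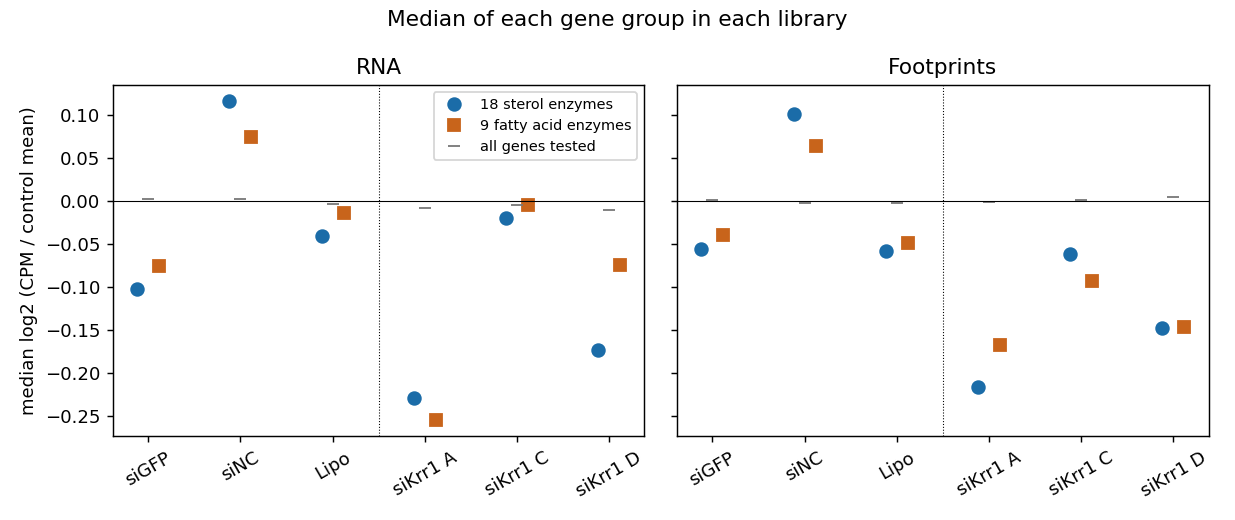
Median log2 ratio of CPM to the control mean (y axis) over 18 sterol enzymes, 9 fatty acid enzymes and all genes tested, for each library (x axis). siNC is the one library above 0 for both enzyme groups, siKrr1 A is the lowest in both panels, and the median of all genes stays near 0.

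Translational efficiency, the change of footprints beyond that of RNA, was called for 0 of the 32 genes (edgeR, from the interaction term of a model fitted to all 12 libraries). It was called for 0 of the 13109 genes tested (0%), and at an unadjusted p under 0.05 for 0 of the 32 and 2.3% of all genes, 1.54% higher and 0.763% lower. This model took the libraries as independent, although each lysate was split between the assays. Its 0 calls do not show that efficiency was unchanged. With the lysate as a block, 0 of the 32 and 8 of all genes were called, and DESeq2 called 0 of the 32 and 2 of all genes. The estimates ran from -0.40 ± 0.45 for Idi1 to 0.23 ± 0.17 for Acss2. The 3 chain-building enzymes were all below 0, at -0.26 ± 0.14 for Acaca, -0.18 ± 0.10 for Fasn and -0.04 ± 0.14 for Elovl6. Fasn and Fads2 are given as examples chosen after their values were seen. Fasn had a log2 footprint to RNA ratio of 1.06, 1.16 and 1.20 in siGFP, siNC and Lipo, against 0.97, 0.90 and 1.04 in siKrr1 A, C and D, which did not overlap. The ratio of Fads2 was higher in siKrr1, at 1.03, 0.98 and 1.09 against 0.90, 0.77 and 0.94 in controls, with an uncalled efficiency change of 0.17.

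The genes of this pathway differed far more in their baseline footprint to RNA ratio than in their response, and this contrast was not compared with other genes. In control lysates the log2 ratio had a median of -0.20 over 13108 genes, with the middle 50% between -0.81 and 0.38. The other 50% of all genes lie beyond that range, so a place outside it is not particular to this pathway. Dhcr7, the reductase of the last step to cholesterol, was at 1.72 ± 0.09 (SD, n = 3), above 96.7% of genes. Fasn (1.14 ± 0.07), Nsdhl (0.97 ± 0.13), Hmgcs1 (0.97 ± 0.06), Srebf2 (0.91 ± 0.19), Fads2 (0.87 ± 0.09) and Sc5d (0.40 ± 0.09) were also above the middle range. At the other end were Insig1 at -1.80 ± 0.10, above 5.92% of genes, Mvk (-1.75 ± 0.05), Fdps (-1.47 ± 0.31), Acat2 (-1.35 ± 0.13), Scap (-1.22 ± 0.09) and Elovl6 (-0.97 ± 0.06).

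Neighbouring steps thus held opposite places: Hmgcs1 carried many footprints for its RNA while Acat2 before it and Mvk after it in the route carried few. The medians of the sterol and fatty acid enzymes were -0.01 and -0.03, and their difference was not tested. The ratio is relative within each assay, and the lengths of coding and untranslated regions were not analysed here.

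**Figure D4:**
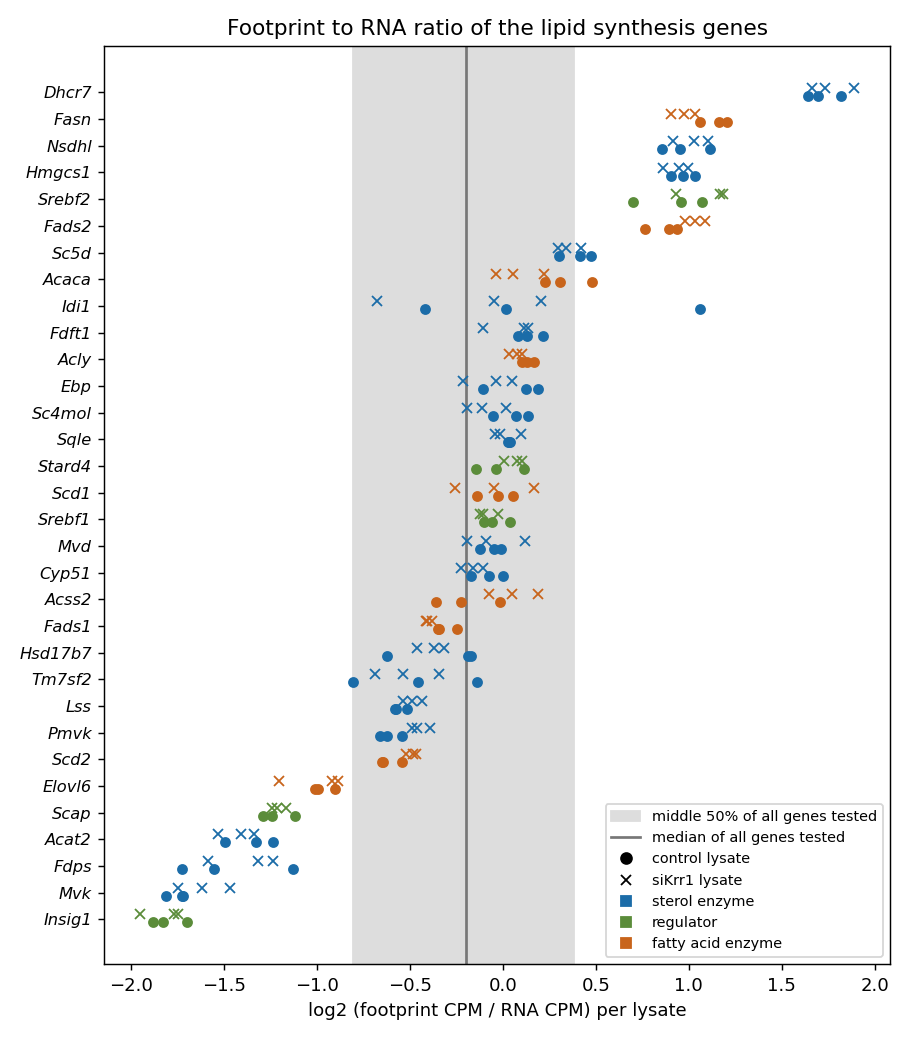
Log2 ratio of footprint CPM to RNA CPM (x axis) for each of the 32 genes, ordered by the control mean, with a point per control lysate and a cross per siKrr1 lysate. Grey marks the middle 50% of all genes tested, from -0.81 to 0.38, and Dhcr7 and Insig1 lie at opposite ends beyond it.

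Other genes of the same routes, from a list of 17 sterol and 18 fatty acid genes outside the 32, were examined in the same fits. In RNA 1 of 35 fell and 0 rose, where 4.8% of all genes were called. In footprints 2 of 35 fell and 1 rose, where 6.07% of all genes were called. Npc2, which carries cholesterol out of lysosomes, fell in both. Its RNA was 126, 141 and 135 CPM in controls and 110, 109 and 100.1 CPM in the siKrr1 lysates A, C and D (-0.33 ± 0.07; edgeR adjusted p = 0.0301), and its footprints were 111, 113 and 106 CPM against 82.4, 89.6 and 89.3 CPM (-0.33 ± 0.06; edgeR adjusted p = 0.0118). The groups were apart in both assays.

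Elovl5, the elongase that works between Fads2 and Fads1, fell in footprints from 212 ± 3.24 to 173 ± 6.91 CPM (SD, n = 3; -0.30 ± 0.05; edgeR adjusted p = 0.0108). Its RNA was also below 0 but overlapped between groups (-0.18 ± 0.08; edgeR adjusted p = 0.208). Lpin1, a phosphatidate phosphatase of glyceride synthesis, rose in footprints from 18.2 ± 0.864 to 25.5 ± 4.37 CPM (0.49 ± 0.12; edgeR adjusted p = 0.039). Its RNA was not called, but every siKrr1 library was above every control (0.38 ± 0.13; edgeR adjusted p = 0.124). Among all genes, 1298 were called in RNA and 1337 in footprints without siKrr1 C, against 674 and 806 with all libraries. When each library was omitted, the RNA call of Npc2 was kept in 1 of 6 fits and reached an edgeR adjusted p of 0.152 without siNC, the footprint calls of Npc2 and Elovl5 were kept in 3 and 4 fits, and that of Lpin1 in 1 (edgeR adjusted p = 0.149 without siNC).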

How the data were processed

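RNA-seq and ribosome profiling gave 12 libraries of R1 cells, 3 per condition and assay. The values are raw counts per gene, as deposited. The submitters' processing notes name STAR, HTSeq and the build mm10. The sources used here give no versions, annotation or strand setting. Of the uniquely mapped reads that the authors list per library, those on no gene (31.2% to 33.4% in RNA, 57.5% to 63.3% in footprints) or on several (at most 0.206%) stayed out of library sizes. Columns of the knockdown carry letters while the titles carry numbers, so they were assigned to group and assay only.

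All genes were fitted with edgeR 4.0.16 (quasi-likelihood test, R 4.3.3, TMM factors of 0.984 to 1.04, filterByExpr), with Benjamini-Hochberg adjustment over all genes and calls at an adjusted p under 0.05. The SE was taken from the F statistic. Alternatives were DESeq2 1.42.0, its size factors, plain library sizes, no filter and each library left out. The scripts were tested on simulated data. Libraries of the same assay and condition were not duplicates (chi-square per degree of freedom at least 4.03).

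Each lysate was divided between the assays, per the labels' protocols, and columns of both tables share its name or letter. Per gene, deviations of a lysate from its group mean in RNA and in footprints had a correlation of 0.266 to 0.713, across 6117 genes with at least 20 CPM in both, above any other lysate of the group.

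The 32 genes, the lists and the tests were chosen with earlier results of these data known. Values per library are given for genes called in any fit, for the 2 members of each role with the highest control RNA CPM, and for the member of each role with the largest change in either assay. Other pathway genes were named where called. Gene positions are those of RefSeq on GRCm38.p6, the build also named mm10.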

Additional observations from a re-analysis of the deposited data

How the results depend on the processing

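Results are limited by 3 libraries per condition, and the calls changed when a library was left out. Such a fit also has fewer libraries to test with, and the part of each was not tested. Leaving out any single control left 0 of the 32 genes called in RNA and in footprints, while leaving out siKrr1 C gave 3 in each and the most calls over all genes in both assays. Members lower numbered 0 to 3 in RNA and 0 to 3 in footprints with a library left out, and 0 were higher. All genes called then numbered 114 to 1298 in RNA (674 with all libraries), 131 to 1337 in footprints (806) and 0 to 1 in translational efficiency (0). Other pathway genes lower then numbered 0 to 1 in RNA and 0 to 2 in footprints, and those higher 0 to 1 and 0 to 2.

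Without the low-count filter, 3 members were lower in RNA and 4 in footprints, 1059 and 1400 genes were called in all, and 3 other pathway genes were higher in footprints. The DESeq2 Wald test called 3 members lower and 1 higher in RNA and 4 lower in footprints, 1195 genes in RNA, and 2 genes in translational efficiency. Added after the data were seen, plain library sizes gave 1 member higher in RNA and 1 lower and 1 higher in footprints, as Acly passed the threshold and Sc4mol did not (edgeR adjusted p = 0.0642). DESeq2 size factors changed no count by more than 1.5 times.

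With the lysate as replicate block, 8 genes were called in translational efficiency, and no call among the 32 genes changed. The fatty acid median of translational efficiency ran from -0.10 (without siKrr1 A) to 0.07 (without siKrr1 D) (0.0657 to 3 digits; -0.04 with all libraries). The fatty acid median in footprints was -0.22 without Acly and Acss2. Apart from these, the medians of both enzyme groups moved by less than the SD of the list median over the 3 controls. For shifts with no value shown beside them, the cause was not tested.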
